A study of Homo sapiens with 18 samples.

Results

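The genes described here encode the proteases, receptor and inhibitors of plasminogen activation, together with tissue factor, the starter of the extrinsic clotting pathway. They were taken as a named list of 6 genes, PLAU, PLAUR, PLAT, SERPINE2, SERPINB2 and F3, and found as the probes that the platform annotation pairs with those symbols. Of the 6, 5 had at least 1 named probe, 8 probes in all, among 20046 genes measured through 47323 probes. SERPINB2, the gene of plasminogen activator inhibitor 2, was paired with no probe in that annotation and was not analysed here.

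Plasmin is the protease that dissolves fibrin and helps cells cut through matrix, and it is made from circulating plasminogen by the urokinase (PLAU) and tissue-type (PLAT) activators. Urokinase works at the cell surface when bound to its receptor, the product of PLAUR, which is held in the membrane by a lipid anchor. SERPINE2 encodes protease nexin 1, a secreted serpin that inhibits thrombin, urokinase and the tissue-type activator. F3 encodes tissue factor, the membrane receptor of factor VII. Carcinoma cells are known to make several of these proteins, and tissue factor and the urokinase receptor are often measured at their surface.

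Messenger RNA was measured on Illumina bead arrays in HCC827, an established human lung adenocarcinoma cell line whose EGFR gene is mutated, so every group carries that mutation. The 18 arrays form 6 groups of 3. They are parental cells, cells given TGFB1, cells with a pLX303 lacZ control lentivirus and cells with a SNAIL-V5 lentivirus. Also included are cells with a pLKO1 non-target hairpin (shNT) and cells with a pLKO1 hairpin against CDH1 (shCDH1). Titles of the SNAIL-V5 arrays read pLX303-lacZ SNAIL-V5, so they name lacZ too, and whether these cells also carry lacZ is not said there. The sample labels name 30 days of TGFB1, whereas 72 hours at 10 ng/mL stand in the series description, so the length of exposure is not settled. Titles number the arrays of a group from 1 to 3, descriptions give 1, 1 and 2, and no label says that they are separate cultures, so p-values measure the spread between these arrays, which may be technical.

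CDH1, the E-cadherin gene, checked the labels, as it was 21.1-fold lower in shCDH1 than in shNT cells, where 8.60 was its mean level in shCDH1 cells (log2 of the normalized intensity, as for all levels here). In SNAIL-labelled cells it was at 7.50 against 13.12 in lacZ cells. The SNAI1 probe did not show the gene that the SNAIL virus carries, with 6.29 ± 0.19 in lacZ and 6.16 ± 0.12 in SNAIL-labelled cells, and where that probe lies in the transcript is not given in the sources used here. These cells are therefore called SNAIL-labelled throughout. Median intensity ran from 152 to 236 over the arrays, and all 18 arrays correlated best with an array of their own group. Of 8 epithelial marker genes, 8 lay above the array-wide median of 6.82 in the parental, TGFB1, lacZ and shNT groups and 7 in the SNAIL-labelled and shCDH1 groups. The summed log2 level of those 8 genes was 68.57 to 68.87 in SNAIL-labelled and 84.44 to 86.28 in shCDH1 cells. It was 91.36 to 100.56 in the other groups, and its part in the results was not tested. That sum includes CDH1, the target of the hairpin, with log2 differences of -5.62 in SNAIL-labelled and -4.40 in shCDH1 cells. No detection call was used, so signal near that median is read as near background. In these bulk samples fewer cells that express a gene and less RNA per cell cannot be told apart.

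Under TGFB1 the urokinase genes and tissue factor rose while the serpin fell. F3 was 2.54-fold higher than in parental cells, PLAUR 1.91-fold, PLAT 1.3-fold and PLAU 1.25-fold, and SERPINE2 was 2.39-fold lower. All 5 measured members passed the test (limma, adjusted p below 0.05 over all genes), 4 higher and 1 lower, where 31.2% of all genes passed. Of all genes called, 49.6% were higher, and 17% if the arrays were not normalized to each other, when F3 rose and SERPINE2 fell but the other 3 members were not called.

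With the CDH1 hairpin the receptor and tissue factor genes fell. PLAUR fell 9.78-fold and F3 6.27-fold against shNT cells, PLAU fell 1.42-fold, PLAT rose 2.3-fold and SERPINE2 rose 1.21-fold. The PLAUR arrays of shCDH1 cells, at 7.52 to 8.12, lay not far above the array-wide median of 6.82, so its fold is not exact. Again all 5 passed, 2 higher and 3 lower, where 33.9% of all genes passed.

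In SNAIL-labelled cells the plasminogen activators went opposite ways. PLAT rose 5.86-fold as measured, PLAU fell 1.25-fold and PLAUR fell 1.66-fold. The PLAT level was near background in all 3 control groups, so its folds in these comparisons are not exact. F3 had a log2 difference of -0.08 ± 0.13 (SE) and SERPINE2 one of 0.21 ± 0.09, and neither passed, so 3 of 5 were called, 1 higher and 2 lower, beside 36.6% of all genes.

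The lacZ cells differed from parental cells in several members. F3 was 2.26-fold and SERPINE2 1.43-fold higher in lacZ than in parental cells and PLAUR was 1.8-fold lower, so that 3 of 5 members were called where 13.8% of all genes were. In shNT cells 0 of 5 members differed from parental cells by limma (adjusted p from 0.215 to 0.982), where 20.8% of all genes did. By its brightest probe no member had an unadjusted 95% interval that excluded 0 there either. Another PLAUR probe, ILMN_2408543, did, with a log2 difference of 0.34 and an interval of 0.06 to 0.62. That probe was not called after adjustment over all probes, and its shNT and parental arrays overlapped. The comparisons with parental cells share the parental arrays, and those with lacZ or shNT cells share these arrays, so they are not independent of each other.

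**Figure D1:**
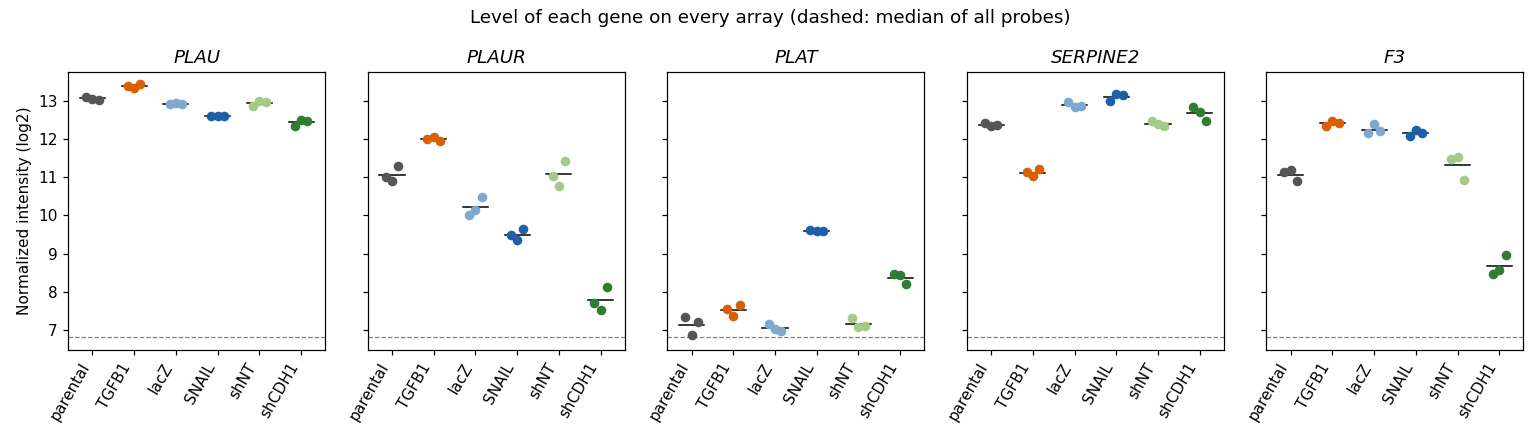
Normalized log2 intensity of the brightest probe of each gene (y axis) on each of the 18 arrays, by group (x axis), with points for arrays, a line for the group mean and a dashed line for the median of all probes. PLAUR and F3 were lowest in shCDH1 cells, PLAT was highest in SNAIL-labelled cells and SERPINE2 was lowest under TGFB1.

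PLAU, the urokinase gene (probe ILMN_1656057), was among the brightest probes in every group. Its levels on the 3 arrays were 13.10, 13.05 and 13.03 in parental and 13.38, 13.33 and 13.42 in TGFB1 cells. The TGFB1 arrays all lay above the parental arrays. They were 12.91, 12.94 and 12.90 in lacZ and 12.61, 12.60 and 12.58 in SNAIL-labelled cells. The hairpin groups gave 12.86, 12.99 and 12.96 for shNT and 12.34, 12.50 and 12.46 for shCDH1. In both comparisons the treated arrays all lay below their controls.

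The PLAU changes were small but larger than the spread between arrays. The log2 difference was 0.32 ± 0.07 under TGFB1 (adjusted p = 0.000317), -0.32 ± 0.07 in SNAIL-labelled cells (adjusted p = 0.000235) and -0.50 ± 0.07 in shCDH1 cells (adjusted p = 4.87e-07). In deposited intensities, before any normalization, PLAU spanned 7987 to 9419 in parental and 9081 to 11285 in TGFB1 cells, and those ranges overlapped. Its rank within an array, which no scaling alters, was at percentiles 98.3 to 98.5 in parental and 99.2 to 99.3 in TGFB1 cells. On arrays left unscaled neither the TGFB1 difference (0.17, adjusted p = 0.438) nor that in SNAIL-labelled cells (-0.34, adjusted p = 0.108) was called. The order of group means ran from TGFB1 through parental, shNT, lacZ and SNAIL-labelled to shCDH1 cells, and shNT and lacZ were the only neighbours in it whose arrays overlapped.

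PLAT, the tissue-type activator (ILMN_1738742), was near background in parental cells, with 7.35, 6.86 and 7.22, and in lacZ cells, with 7.14, 7.04 and 6.97. It reached 9.62, 9.59 and 9.59 in SNAIL-labelled cells. No lacZ array came within 2 log2 units of that level. In shNT cells it stood at 7.32, 7.08 and 7.10 and in shCDH1 cells at 8.45, 8.44 and 8.21. Under TGFB1 it was 7.55, 7.36 and 7.66, just above the parental arrays.

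The log2 difference of PLAT was 2.55 ± 0.12 in SNAIL-labelled cells (adjusted p = 2.16e-15) and 1.20 ± 0.12 in shCDH1 cells (adjusted p = 1.11e-08). Under TGFB1 it was 0.38 ± 0.12 (adjusted p = 0.0199), a call that ended without parental array 2 (0.24, adjusted p = 0.181), TGFB1 array 1 (0.37, adjusted p = 0.0577) or TGFB1 array 3 (0.31, adjusted p = 0.0962), and with median centring (0.34, adjusted p = 0.0673). On arrays left unscaled it was 0.10 (adjusted p = 0.738), and it turned to -0.09 (adjusted p = 0.673) on unscaled log2 intensities with a floor. The arrays of shNT overlapped those of parental cells and these overlapped lacZ, so these 3 groups at the low end of the order were not separated.

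Some fibroblast marker genes were higher where PLAT was. The summed log2 level of 7 such genes was 54.65 to 55.04 in SNAIL-labelled and 44.87 to 45.53 in lacZ cells, and 48.86 to 49.25 in shCDH1 and 45.33 to 45.71 in shNT cells. Of the 7, those above the array-wide median numbered 4 in SNAIL-labelled and 1 in lacZ cells, and in shCDH1 and shNT cells 3 and 2. LUM and PDGFRB were at 11.47 and 10.71 in SNAIL-labelled cells, while FAP was at 6.09 and THY1 at 5.93, both below that median. In shCDH1 cells LUM was at 10.08 against 6.37 in shNT cells, while PDGFRB, COL1A1, FAP and THY1 were no higher than in shNT cells. In TGFB1 cells the sum was 50.57 to 51.40, above that in shCDH1 cells although PLAT was lower there, and in parental cells it was 46.00 to 46.50. Their part in the result was not tested.

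PLAUR, the urokinase receptor gene, was measured by 3 probes, of which ILMN_2374340 was the brightest. Its levels were 11.01, 10.91 and 11.28 in parental cells and 12.00, 12.05 and 11.95 under TGFB1. The TGFB1 arrays were the highest of all 18. Levels were 11.04, 10.76 and 11.42 in shNT and 7.71, 7.52 and 8.12 in shCDH1 cells, which were the lowest of all. In lacZ cells they were 10.00, 10.15 and 10.49 and in SNAIL-labelled cells 9.48, 9.35 and 9.63. Each treated group was separate from its control group.

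The log2 difference of PLAUR was -3.29 ± 0.16 in shCDH1 cells (adjusted p = 1.41e-15), 0.94 ± 0.16 under TGFB1 (adjusted p = 2.81e-05) and -0.73 ± 0.16 in SNAIL-labelled cells (adjusted p = 0.000447). On arrays left unscaled the TGFB1 difference was 0.54 and was no longer called (adjusted p = 0.0776). Against lacZ cells, in place of parental cells, the TGFB1 difference was 1.79. In deposited intensities PLAUR spanned 297 to 337 in shCDH1 and 1824 to 2518 in shNT cells.

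The other probes of PLAUR moved the same way in the 3 main comparisons, by different amounts. For ILMN_2408543, which the annotation ties to the transcript NM_002659 of the membrane-anchored receptor, the log2 differences were 0.88 under TGFB1, -0.57 in SNAIL-labelled and -2.52 in shCDH1 cells. For ILMN_1691508, tied like the brightest probe to NM_001005376, they were 0.75, -1.35 and -3.52. So the size of the fall in SNAIL-labelled cells depended on the probe, also between probes of that transcript. Across the 18 arrays the 3 probes correlated at r = 0.980 to 0.985, which is a description over arrays that fall into 6 groups.

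**Figure D2:**
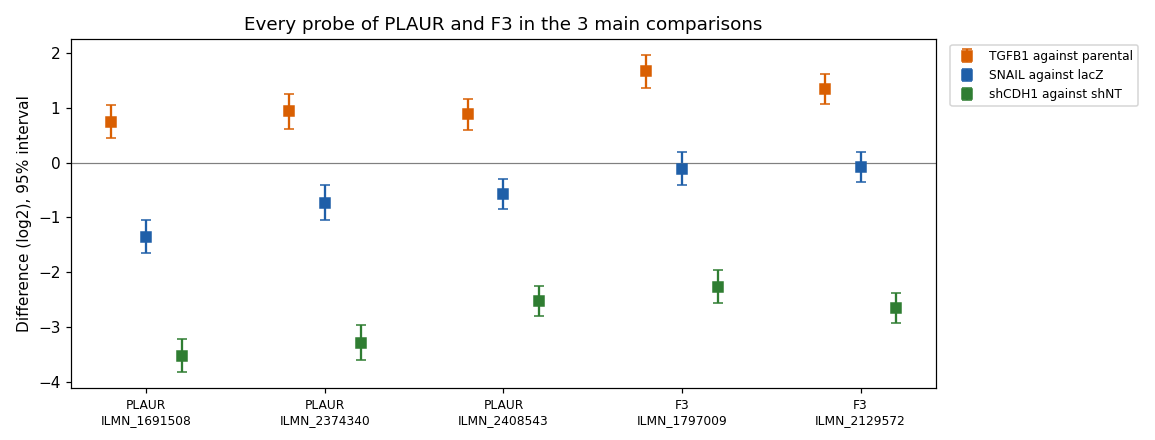
Difference between group means (y axis, log2, with its unadjusted 95% interval) of every probe of PLAUR and F3 (x axis) in the 3 main comparisons, with 3 arrays per group. All 5 probes lay above 0 under TGFB1 and below -2 in shCDH1 cells, and both F3 probes had intervals across 0 in SNAIL-labelled cells.

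SERPINE2, the gene of protease nexin 1 (ILMN_1655595), was bright in all groups and lowest under TGFB1. Its levels were 12.43, 12.33 and 12.36 in parental and 11.12, 11.02 and 11.20 in TGFB1 cells. These 3 TGFB1 arrays lay below the other 15. It stood at 12.96, 12.84 and 12.87 in lacZ and 12.98, 13.18 and 13.15 in SNAIL-labelled cells, and at 12.48, 12.38 and 12.34 in shNT and 12.83, 12.70 and 12.48 in shCDH1 cells. In these comparisons the treated arrays lay just above their controls.

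The fall of SERPINE2 under TGFB1, -1.26 ± 0.09 on the log2 scale (adjusted p = 3.5e-12), was called under every alternative run, with log2 values from -1.78 to -1.20. The rise in shCDH1 cells, 0.27 ± 0.09 (adjusted p = 0.0143), was not held so firmly. It ended without shCDH1 array 1 (0.19, adjusted p = 0.125) or shNT array 3 (0.24, adjusted p = 0.0663). It also ended under 5 settings that dropped no shCDH1 or shNT array, with adjusted p from 0.0571 to 0.246. The difference of 0.21 in SNAIL-labelled cells (adjusted p = 0.0573) passed without SNAIL array 1 (0.27, adjusted p = 0.0274), in a fit of the compared arrays alone (adjusted p = 0.0256) and with genes above the array-wide median alone (adjusted p = 0.0429). The rise of 0.52 ± 0.09 in lacZ over parental cells (adjusted p = 6.3e-05) ended without normalization (0.42, adjusted p = 0.281). Only the shNT and parental arrays overlapped among neighbours in the order from SNAIL-labelled, lacZ, shCDH1, shNT and parental to TGFB1 cells.

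F3, the tissue factor gene, had 2 probes, of which ILMN_2129572 was brighter. Its levels were 11.12, 11.17 and 10.89 in parental and 12.34, 12.46 and 12.42 in TGFB1 cells. All TGFB1 arrays were above the parental ones. Levels were 11.48, 11.52 and 10.93 in shNT and 8.45, 8.56 and 8.97 in shCDH1 cells, the lowest group. They were 12.14, 12.38 and 12.20 in lacZ and 12.08, 12.24 and 12.15 in SNAIL-labelled cells, and those 2 groups overlapped.

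The log2 difference of F3 was 1.34 ± 0.13 under TGFB1 (adjusted p = 5.71e-09), -2.65 ± 0.13 in shCDH1 cells (adjusted p = 4.84e-15) and 1.18 ± 0.13 in lacZ against parental cells (adjusted p = 2.09e-07). With lacZ cells as the control the TGFB1 difference of this brighter probe was 0.17 (adjusted p = 0.428), and with shNT cells it was 1.09 (adjusted p = 1.96e-07). The interval of the SNAIL difference ran from -0.36 to 0.19. In shNT against parental cells F3 was called without shNT array 3 (0.44, adjusted p = 0.0179) and not with it (0.25, adjusted p = 0.215). The second probe, ILMN_1797009, gave 1.67 under TGFB1, -2.27 in shCDH1 and -0.11 in SNAIL-labelled cells. On that probe the TGFB1 arrays, at 11.68 to 11.96, all lay above the lacZ arrays, at 11.28 to 11.39, a difference that was not tested. By the brighter probe TGFB1, lacZ and SNAIL-labelled cells followed each other at the top of the order with overlapping arrays. Then came shNT and parental cells, which also overlapped, and then shCDH1.

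**Figure D3:**
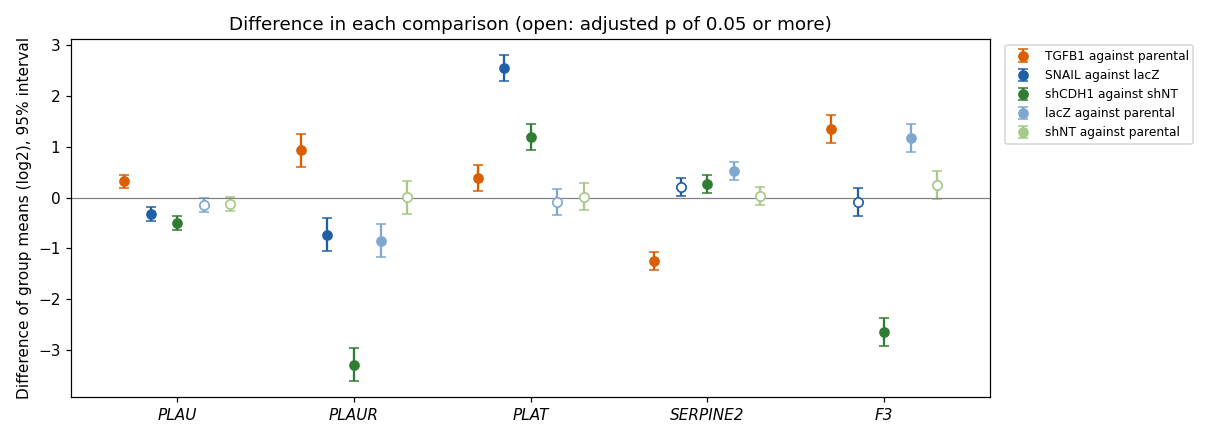
Difference between group means (y axis, log2, with its unadjusted 95% interval) for each gene (x axis) in 5 comparisons of 3 arrays with 3, with filled points for an adjusted p below 0.05. PLAUR and F3 lay above 0 under TGFB1 and furthest below 0 in shCDH1 cells, at -3.29 and -2.65, and PLAT was highest in SNAIL-labelled cells at 2.55.

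PLAUR and F3 were the members with the widest range over the 6 groups, 18.6-fold and 13.4-fold between the highest and the lowest group mean. Both were highest under TGFB1 and lowest in shCDH1 cells, as was PLAU over a range of 1.93-fold. The range of PLAUR is not exact, as its level in shCDH1 cells was not far above the array-wide median. The 250 bases before the annotated start sites of PLAUR and F3 are shown because these members varied most, with matches to the AP-1 motif TGANTCA, read on both strands, in capitals. They come from RefSeq on GRCh38.p14, minus strand, chr1:94541760-94542009 for F3 and chr19:43670170-43670419 for PLAUR.
F3: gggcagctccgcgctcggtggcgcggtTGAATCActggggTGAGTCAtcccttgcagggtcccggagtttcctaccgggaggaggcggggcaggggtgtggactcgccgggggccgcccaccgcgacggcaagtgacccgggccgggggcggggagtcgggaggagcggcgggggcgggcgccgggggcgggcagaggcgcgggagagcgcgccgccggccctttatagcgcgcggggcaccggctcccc
PLAUR: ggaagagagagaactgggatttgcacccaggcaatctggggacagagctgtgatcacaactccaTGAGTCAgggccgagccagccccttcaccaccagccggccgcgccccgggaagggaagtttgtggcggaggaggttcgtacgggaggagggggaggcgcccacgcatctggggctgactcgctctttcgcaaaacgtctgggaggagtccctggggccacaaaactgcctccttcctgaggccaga

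Windows were matched for 5 of the 6 listed genes. PLAT was left out of this step, so whether its window holds these motifs was not examined. F3 held TGANTCA at 223 and 210 bases before its start, PLAUR at 186 and SERPINB2, whose RNA was not analysed, at 102, and the windows of PLAU and SERPINE2 held none. Of 35116 RefSeq promoter windows of this length, 6.57% held the motif. The E-box CAGGTG or CACCTG, which SNAIL proteins are known to bind, was in neither, was found once in the windows of PLAU, at 233 bases before the second of its 2 starts, and not in those of SERPINE2, and 17.5% of all windows held it. SP1 boxes, GGGCGG or CCGCCC, numbered 4 in F3 and 0 in PLAUR, and 42.6% of windows had at least 1. The letters describe these windows and say nothing of which factors bind there.

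The 3 treatments were next set against each other by the difference of their effects. For TGFB1 against SNAIL all 5 members differed, where 29.3% of all genes did, and for TGFB1 against shCDH1 all 5 differed, where 30.1% did. For SNAIL against shCDH1, PLAUR, PLAT and F3 differed, where 31.9% of all genes did. The TGFB1 effect on PLAUR exceeded that of shCDH1 by 4.23 ± 0.22 log2 units (adjusted p = 2.74e-14) and that on F3 by 3.99 ± 0.19 (adjusted p = 3.19e-15). For PLAT the SNAIL effect was above the TGFB1 effect, the difference taken as TGFB1 minus SNAIL being -2.17 ± 0.18 (adjusted p = 1.63e-10). SERPINE2 did not pass between SNAIL and shCDH1, with a difference of -0.06 and an interval of -0.31 to 0.19, nor did PLAU, with 0.18 and -0.01 to 0.37.

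Other genes of plasmin formation and its control were read from a list of 30, of which 27 had a named probe. Under TGFB1 6 rose and 5 fell, in SNAIL-labelled cells 9 rose and 4 fell, and in shCDH1 cells 2 rose and 5 fell, beside 31.2%, 36.6% and 33.9% of all genes called in either direction. Without normalization between arrays the TGFB1 split became 2 higher and 7 lower. The list's median log2 difference was -0.01, 0.06 and -0.04 in the 3 comparisons, beside medians of all genes of 0.00, 0.01 and 0.01. PLG, the plasminogen gene itself, had group means from 6.01 to 6.25, below the array-wide median.

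Within this list ITGB3, the integrin beta 3 subunit that pairs with ITGAV to bind vitronectin, rose in all 3 comparisons. Its mean level was 8.41 under TGFB1, 7.19 in SNAIL-labelled and 7.80 in shCDH1 cells, and 6.32, 6.50 and 6.35 in their controls, all below the array-wide median, so no fold is given. In SNAIL-labelled cells it was not called on unscaled log2 intensities with a floor (0.29, adjusted p = 0.34). VTN, the vitronectin gene, and A2M, a broad protease inhibitor, rose in SNAIL-labelled cells to 7.93 and 8.63 from 6.19 and 6.14 in lacZ cells, also below that median, and their log2 differences of -0.10 and 0.07 under TGFB1 did not pass. LRP1, an endocytic receptor that clears complexes of activators with serpins, rose to 7.32 in SNAIL-labelled cells from 6.27, likewise below it, in lacZ cells. SORL1, another receptor of that family, fell 4.32-fold under TGFB1 and 4.08-fold in SNAIL-labelled cells by its brighter probe. The other SORL1 probe, ILMN_2060115, gave smaller falls of 2.16-fold and 1.93-fold. In shCDH1 cells that probe was also lower (-0.56, adjusted p = 0.00325 over all probes), while the brighter one was not called (-0.24).

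SERPINA5, the protein C inhibitor, which also inhibits urokinase, fell from 8.45 in lacZ to 6.82 in SNAIL-labelled cells and from 8.52 in shNT to 6.89 in shCDH1 cells, that is to about the array-wide median. Its mean in parental cells was 7.68, and both lacZ and shNT cells were called higher than these (log2 differences of 0.77 and 0.84). Under TGFB1 SERPINA5 was 1.5-fold higher than in parental cells. The sign turned against lacZ cells (-0.19, adjusted p = 0.429) and shNT cells (-0.26, adjusted p = 0.21). PLGRKT, a membrane receptor of plasminogen, was lower by 1.77-fold in TGFB1 cells and 1.94-fold in shCDH1 cells. It was also 1.96-fold lower in lacZ than in parental cells, and with lacZ as the control the TGFB1 difference was 0.15 (adjusted p = 0.306), while with shNT it was -0.53 (adjusted p = 7.25e-05).

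In the tissue factor pathway, 18 of 19 listed genes had a named probe. Under TGFB1 3 rose and 5 fell, in SNAIL-labelled cells 5 rose and 3 fell, and in shCDH1 cells 2 rose and 4 fell, beside the same 31.2%, 36.6% and 33.9% of all genes. Without normalization between arrays these became 1 and 7, 3 and 2, and 0 and 2. The list's medians were -0.10, -0.01 and -0.15.

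The 2 inhibitors named for tissue factor parted. TFPI, which blocks the complex of tissue factor and factor VIIa, rose 1.64-fold in TGFB1-treated and 1.32-fold in shCDH1 cells, and its 1.17-fold rise in SNAIL-labelled cells (adjusted p = 0.0404) ended under several settings, among them each of the 3 SNAIL arrays left out (adjusted p from 0.0522 to 0.119). On arrays left unscaled the TFPI differences with TGFB1 (0.34, adjusted p = 0.181) and shCDH1 (0.49, adjusted p = 0.0604, larger than the normalized 0.40) were not called either. The shCDH1 difference of TFPI also depended on the probe. It was 0.40 for the brightest, 0.63 for ILMN_1701032 and 0.18, not called, for ILMN_1662619 (adjusted p = 0.162 over all probes). TFPI2, a secreted Kunitz inhibitor with plasmin among its targets, fell 2.28-fold under TGFB1, 4.96-fold in SNAIL-labelled and 3.18-fold in shCDH1 cells. Its controls differed, with means of 9.26 in parental, 10.05 in lacZ and 9.69 in shNT cells. Both virus controls were called higher than parental cells (limma, adjusted p = 0.000286 and 0.0436 over all probes). The treated means were 8.07 under TGFB1, 7.74 in SNAIL-labelled and 8.02 in shCDH1 cells. PROCR, the endothelial protein C receptor, rose 2.98-fold, 1.63-fold and 1.28-fold, and on unscaled arrays its shCDH1 difference was not called (0.48, adjusted p = 0.157). F5, the gene of coagulation factor V, fell by 1.20, 0.73 and 0.70 on the log2 scale, to 6.65 in SNAIL-labelled cells, below the array-wide median, but the TGFB1 difference was 0.0007 (adjusted p = 0.998) against lacZ cells and -0.27 (adjusted p = 0.0969) against shNT cells, and that in shCDH1 cells was not called on unscaled intensities with a floor (-0.32, adjusted p = 0.288). For F2RL2, a receptor of the thrombin receptor family, the probes disagreed in SNAIL-labelled cells, with log2 differences of -0.0023 and 1.76.

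**Figure D4:**
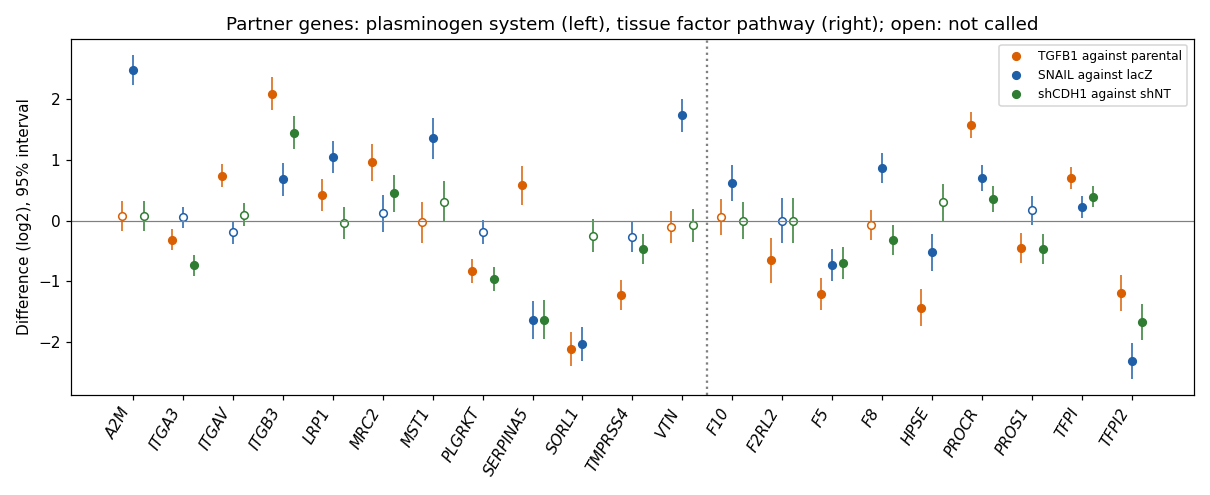
Difference between group means (y axis, log2, with its unadjusted 95% interval) of 21 partner genes (x axis) in the 3 main comparisons, with filled points for an adjusted p below 0.05 and a dotted line between the 2 lists. TFPI2 lay below 0 and PROCR above 0 in all 3 comparisons, and SERPINA5 was above 0 only under TGFB1.

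Among genes above the array-wide median in some group and with group means at least 1 log2 unit apart, the levels most like each member's over the 18 arrays were listed by Pearson's r. For PLAU they were those of RASGRP3 (0.980), CNTN1 (0.974) and PPP1R14C (0.967), and for PLAUR those of DUSP23 (0.978), SUSD6 (0.977) and IER3 (0.973). PLAT was nearest to TPP1 (0.986), ANKDD1A (0.984) and MAMDC2 (0.982). SERPINE2 was nearest to DAPK1 (0.974), KIF20A (0.958) and MCCC1 (0.952), and F3 to GCNT1 (0.972), RNF212 (0.969) and OXCT1 (0.963). The arrays fall into 6 groups, so these values describe shared group levels. With Spearman's rho in its place 0 of the 3 stayed nearest to PLAU, SERPINE2 or F3, 1 to PLAUR and 2 to PLAT.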

How the data were processed

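RNA of 18 samples was measured on Illumina bead arrays. Scanner settings and any background treatment by the authors are not given in the sources used here. From these arrays the authors deposited 47323 probes as linear intensity, with array medians and ranges that differ, so the values were read as not normalized between arrays. Here, 2 probes with a value of 0 were left out, intensities were corrected with limma normexp (offset 50), taken to log2 and quantile normalized (limma 3.58.1, R 4.3.3). Of the probes, 30113 had 1 symbol in the platform annotation, 8 several, and 17202 were not listed. The brightest probe stood for each of 20046 genes.

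One limma model of 6 group means (12 residual degrees of freedom, intensity trend) gave 5 comparisons and 3 differences of effects, with two-sided Benjamini-Hochberg adjustment over all genes and calls below 0.05. The design written beforehand counted 6 members; SERPINB2 had no named probe, so 5 were counted. The script was tested on simulated data. Members and lists were chosen with earlier results of these data known. Partner genes named are the up to 6 called genes with the largest change per list and comparison, of which the text gives a part; the nearest 3 genes by correlation are named for each member. Marker lists covered epithelial, haematopoietic, endothelial and fibroblast cells and platelets; haematopoietic markers above the array-wide median numbered 2 or 3 of 6, endothelial 0 to 2 of 6 and platelet 1 of 4 in every group. The 3 arrays per group limit the precision. Equally numbered arrays deviated from their group means with correlations of -0.13 to 0.22. In the TGFB1, SNAIL and lacZ comparisons each of these was above the highest correlation with a differently numbered array. For array 3 in lacZ against parental cells, for example, it was 0.22 against -0.10. What equally numbered arrays share is not given by the labels and was not tested. The main model did not pair arrays by number, and a replicate block was run as an alternative. Alternatives changed the offset, normalization, filter, probe rule, moderation, arrays in the fit, replicate numbers, control group and call rule, and left out each array.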

Additional observations from a re-analysis of the deposited data

Results flagged for a closer look

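For 13 effects of 2 treatments on a member, the test of the difference between them passed (limma, adjusted over all genes). Taken as TGFB1 minus SNAIL, these log2 differences were 0.64 for PLAU, 1.66 for PLAUR, -2.17 for PLAT, -1.47 for SERPINE2 and 1.43 for F3. Taken as TGFB1 minus shCDH1, they were 0.82 for PLAU, 4.23 for PLAUR, -0.82 for PLAT, -1.53 for SERPINE2 and 3.99 for F3. Taken as SNAIL minus shCDH1, they were 2.56 for PLAUR, 1.35 for PLAT and 2.57 for F3. The difference for PLAU between TGFB1 and SNAIL was not called without normalization between arrays (0.51, adjusted p = 0.0953) or on unscaled log2 intensities with a floor (0.50, adjusted p = 0.14). Each effect is measured against its own control group, and lacZ cells already differed from parental cells in F3, SERPINE2 and PLAUR.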

How the results depend on the processing

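Over 40 member differences and 780 alternative values, 752 kept their side of the threshold, 23 lost the call and 4 gained one. The remaining 1 turned in sign from a called value, PLAT under TGFB1 (-0.0942 on unscaled log2 intensities with a floor). Signs that turned between values not called are counted among the 752. An example is F3 in shNT against parental cells, at 0.25 in the main fit and -0.04 at its lowest. Without normalization between arrays, or with that floor, 2 of 5 members were called under TGFB1, F3 higher and SERPINE2 lower; the median of all genes then lay at -0.22 and -0.30, and 17% and 12.9% of called genes were higher in place of 49.6%. In shNT against parental cells the median moved to -0.10 and -0.19. Requiring at least 1 log2 unit left 2 members called under TGFB1, 1 in SNAIL-labelled, 3 in shCDH1 and 1 in lacZ cells and 3 for TGFB1 minus shCDH1. With single arrays left out, 0 to 1 members were called for shNT against parental cells. Among partner genes, the sign turned for LRP1 under TGFB1 with the floor (-0.0937), for F2RL2 in SNAIL-labelled cells with the mean (0.88) or the most variable probe (1.76), and, against lacZ cells, for F5 (0.0007), PLGRKT (0.15) and SERPINA5 (-0.19; -0.26 against shNT). The cause was not tested. The fit with the replicate block, which took the titles' numbers as blocks across groups, called 5, 3 and 5 members in the main comparisons and changed no member's call. Counts of called genes fell without normalization, and with the floor, from 7340 to 4641 and 3588 (SNAIL), 6803 to 4208 and 3391 (shCDH1), 2760 to 1091 and 712 (lacZ), 4161 to 1946 and 1636 (shNT), and 6404 to 3624 and 2804 (SNAIL minus shCDH1); with the floor TGFB1 minus SNAIL went from 5873 to 3000. The size threshold left 1460, 2029, 1630, 471 and 421 genes in the 5 comparisons and 2143, 2051 and 2429 in the 3 differences. PLAT levels near the array-wide median in 4 groups limit its small changes.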
